A study of Piaractus mesopotamicus with 6 samples.

Results

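The BMP and TGF-beta ligands, receptors, antagonists and Smads were followed in 2 kinds of sample of the pacu, Piaractus mesopotamicus, a freshwater fish of South America. Members were all gene names in the deposited table that begin with the letters of these families, such as bmp and a digit, tgfb, acvr, smad, nog, grem or ltbp. The rule took 68 of 16347 gene names, and for each name the assembled transcript with the highest mean over the 6 libraries stood for the gene. By role these were 18 ligands, 19 receptors, 10 antagonists and decoys, 3 latent TGF-beta binding proteins, 10 Smads, 3 Id genes and 5 genes whose names match by letters only. The first group held 3 libraries of primary muscle cells, cultured in complete growth medium, that is DMEM with 10% fetal bovine serum and 1% antibiotics. The second held 3 libraries of fast-twitch epaxial muscle taken from fish fed commercial food. Both came from wild-type juveniles of 12 to 20 g kept at 28 °C. A cell isolation started from the muscle of 12 animals and the tissue came from 6 animals. The labels do not say which animals or cultures each library represents, so p-values measure the spread between these libraries, which may be technical.

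TGF-beta family ligands are secreted dimers that bring together type II and type I receptor kinases, which then phosphorylate receptor-regulated Smads. TGF-beta, activin and myostatin signal mainly through Smad2 and Smad3, and BMPs mainly through Smad1, Smad5 and Smad9. Smad4 is the shared partner, Smad6 and Smad7 inhibit, and Id genes are classic BMP targets. In skeletal muscle, myostatin and activins restrain growth, BMP signalling supports muscle mass, TGF-beta holds back myoblast differentiation, and follistatin and noggin bind and block their ligands.

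Cell libraries held 105795157 to 115224600 whole reads recovered from the table, and tissue libraries 118183731 to 124752600. The values are normalised counts, reads divided by 1 size factor per library, and one read was worth 0.391 to 0.439 in cells and 1.98 to 2.67 in tissue. A floor of 3 reads therefore stood at 1.17 to 1.32 normalised counts in cells and 5.95 to 8.02 in tissue, which covers counting error only. Transcript length is unknown here, so levels are compared between groups and not between genes. All 10 fast fibre markers were far lower in cells, where their summed level ran from 546 to 4682 normalised counts, against 12895700 to 18955900 in tissue. Of 7 myoblast and satellite cell markers, 3 were higher in cells and 2 lower, and none was at 0 in all cell libraries, while under equal totals, with every library rescaled to the same sum, 4 were higher and none lower. Of 11 fibroblast and connective tissue markers in the table, 7 were higher and 1 lower, with summed levels of 733797 to 947142 in cells and 429658 to 527808 in tissue. All 7 leukocyte markers were lower in cells, at a summed 15.7 to 28.5 in cells and 6427 to 8974 in tissue, with laptm5 and lcp1 at 0 in all cell libraries. Of 8 endothelial markers, 6 were lower, with flt1 at 0 in cells and summed levels of 1909 to 2183 in cells and 2608 to 3736 in tissue. Those that did not pass were kdrl, at 1342 ± 377 in cells and 1242 ± 214 in tissue, and cdh5, at 502 ± 185 in cells and 457 ± 488 in tissue (SD, n = 3). Under equal totals 2 endothelial markers were higher and 3 lower. All 3 nerve sheath markers tested were lower, with mbpa and plp1b at 0 in cells, and so were both erythroid markers, where 21.7% of all names were lower. The untested plp1a averaged 9.84 ± 9.26 in cells, against 7.96 ± 13.8 in tissue (SD, n = 3). These tested nerve and erythroid markers reached 10 normalised counts, the level of the filter, in tissue only, so they had to differ. The same held for the leukocyte markers other than cd74b and for the endothelial cldn5b, pecam1, flt1 and tie1. Of 10 smooth muscle and pericyte markers, 4 were higher and 4 lower, with summed levels of 53629.6 to 83327 in cells and 1417380 to 1855610 in tissue. Nearly all of the tissue sum was acta2, at 1615560 ± 220794 in tissue, against 31043 ± 5293 in cells (SD, n = 3). In the other direction, tagln averaged 34116 ± 9565 in cells, against 1123 ± 258 in tissue (SD, n = 3). Whether the transcripts named acta2 come from smooth muscle was not tested, so the summed level is not a measure of smooth muscle content. The part of these cell types in the values of the family was not tested, and in such bulk samples fewer cells of a type and less RNA per cell cannot be told apart.

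Cultured cells held more of most antagonists and of 2 latent TGF-beta binding proteins than muscle did, while most receptors and Smads did not pass the test. Of the 9 ligands that were higher, 6 reached 10 normalised counts in cells only, as did 4 of the 8 antagonists that were higher. Tests were made with limma on log2(normalised count + 1), and a member was called at a Benjamini-Hochberg adjusted p under 0.05 over all 65662 transcripts tested. Of 67 members tested, 32 were higher in cells (47.8%), where 30.5% of all 15496 names tested were higher. Only ACVR1C and tgfbr2b were lower (2.99%), where 21.7% of all names were lower, and the count of lower members was 1 without cell library 1 or 2 and 3 without tissue library 1 or 3. By role, 9 of 18 ligands, 5 of 18 receptors, 8 of 10 antagonists, 2 of 3 latent binding proteins, 3 of 10 Smads, 1 of 3 Id genes and 4 of 5 genes matched by letters only were higher. The shares of receptors (27.8%) and Smads (30%) were close to that of all names. The filter asked for 10 normalised counts in 3 libraries. In cells only, 11 members reached 10, and ACVR1C did so in tissue only, so the filter set their direction. Among these, bmp4 did not pass the test (adjusted p = 0.103), and the others did. Among the 55 members that reached 10 in at least 1 library of each group, 22 were higher and 1 lower, against 28.6% and 18.7% of all names of that kind. Of the 11 ligands among these 3 were higher, a share close to that of all names of that kind. Over all 254 transcripts of the 68 members, 239 were tested, with 100 higher and 6 lower, against 27.4% and 19.7% of all transcripts. The groups did not overlap for 37 members higher in cells and 3 lower, against 40.5% and 25.8% of all names.

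The scaling bears on every direction in these data. On the deposited scale the median log2 change of all names, cells minus tissue, was 0.59, and that of the tested members was 1.52, or 1.49 with genes at 0 in 1 group set at their bound. The median change was 2.66 for ligands, 0.72 for receptors, 3.75 for antagonists (2.75 at the bound) and 0.20 for Smads. Relative to all names these were 2.07 for ligands, 0.13 for receptors, 3.17 for antagonists and -0.38 for Smads. Rescaled to equal library totals, 64 members were higher and only ACVR1C lower, where 79.3% of all names were higher and 8.27% lower. Centred on the median of all names, 26 were higher and 5 lower, against 25.5% and 25.3% of all names. Centring ended the calls of bmp2b, bmp6, bmpr2b, ACVR1, smad2 and bmp2k (limma adjusted p = 0.0519 to 0.237). Of the 34 calls, 23 were made in every alternative that could be fitted (other scalings, pseudocounts, filters and weights, summed transcripts, or any 1 library left out), 22 of them higher and the remaining one ACVR1C. These include ACVR1C and the 9 members at 0 in every tissue library, which passed the filter through 1 group and had to differ.

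**Figure D1:**
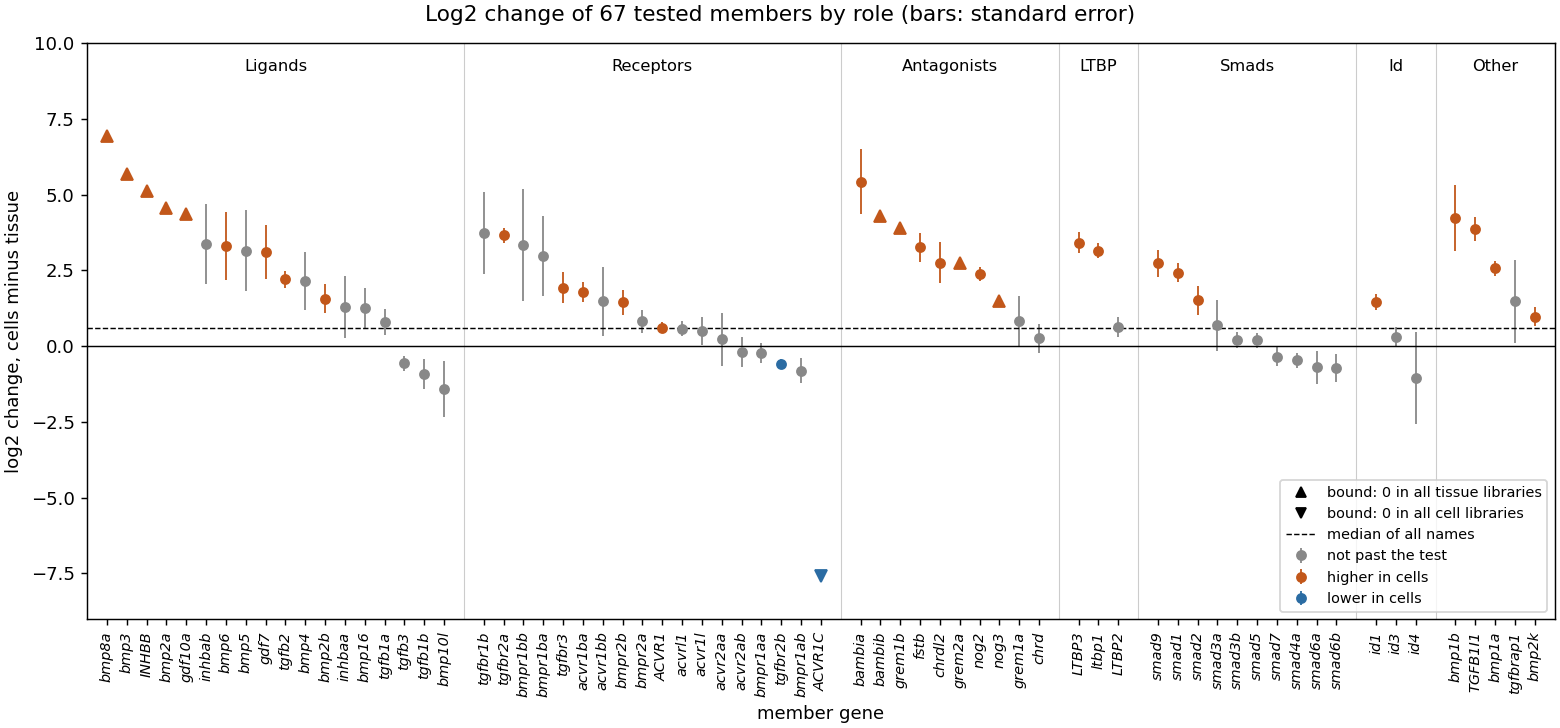
Log2 change (cells minus tissue, on log2 of normalised count + 1) of the 67 tested members, grouped by role; points are estimates with standard errors, triangles are bounds for genes at 0 in all libraries of 1 group, orange is higher and blue lower in cells at a limma adjusted p under 0.05, and the dashed line is the median of all names at 0.59. Antagonists lie mostly above the dashed line, Smads lie around it, and of the blue points ACVR1C stays lower under equal totals while tgfbr2b turns to a log2 change of 1.95.

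Of the 4 TGF-beta ligand genes only tgfb2 passed. Transforming growth factor beta 2, tgfb2, stood at 999, 1248 and 1642 normalised counts in cell libraries 1, 2 and 3, against 302, 204 and 334 in tissue libraries 1, 2 and 3. All cell libraries lay above all tissue libraries, and tgfb2 rose by a log2 of 2.21 (SE 0.27, limma adjusted p = 0.000584). Its paralogue tgfb3 stood at 828, 640.4 and 516 in cells, against 984, 754 and 1192 in tissue. These groups overlapped, and the log2 change of -0.56 (SE 0.25, adjusted p = 0.105) did not pass the test and turned to 1.97 under equal totals. Of the pair of pacu genes for TGF-beta 1, the classic fibrogenic and immune-regulating ligand, tgfb1a stood at 261, 241 and 373 in cells, against 90.9, 249.9 and 197 in tissue. Tissue library 2 reached into the range of the cells, and the log2 change of 0.79 (SE 0.42, adjusted p = 0.159) did not pass. The other copy, tgfb1b, stood at 54.0, 39.9 and 27.5 in cells, against 80.2, 63.5 and 79.6 in tissue. All cell libraries lay below all tissue libraries, but the log2 change of -0.91 (SE 0.50, adjusted p = 0.173) did not pass and turned to 1.58 under equal totals.

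Of 11 BMP and growth differentiation factor ligands, 7 were higher in cells, where 30.5% of all names were. Through cells only, gdf7 and bmp4 passed the filter, as did 4 ligands that were at 0 in every tissue library, so the filter set their direction. Of the others, which reached 10 in both groups, bmp6 and bmp2b were higher, and bmp5, bmp16 and bmp10l did not pass with all libraries. Of the 4 ligands at 0 in tissue, bmp8a stood at 721, 979 and 740.0 normalised counts in cell libraries 1, 2 and 3. It was at least 122-fold higher than the tissue floor of 3 reads. Another, bmp3, which in mammals opposes osteogenic BMPs, stood at 219, 443 and 360.0 in cells. That was at least 51.3-fold above the tissue floor (limma adjusted p = 8.55e-05), and all 9 assembled transcripts of bmp3 were at 0 in tissue. The BMP ligand bmp2a, at 104, 243 and 125 in cells, was at least 23.7-fold higher, and gdf10a, a relative of bmp3, at 120.1, 129 and 158 in cells, was at least 20.4-fold higher (adjusted p = 0.000142 for bmp2a and 0.000105 for gdf10a). The second copy bmp2b was present in both groups, at 103, 84.3 and 76.7 in cells, against 26.7, 27.8 and 31.8 in tissue. Its groups did not overlap and it rose by 1.57 (SE 0.47, adjusted p = 0.0309), a call that ended without cell library 1, 2 or 3 (adjusted p = 0.0957 to 0.124, spanning 0.000192 to 0.124 across alternatives). By contrast bmp4, a main ligand of the BMP pathway, was low throughout, at 10.9, 24.6 and 14.8 in cells, against 0, 3.97 and 9.95 in tissue. Most of its tissue values lay near the floor, and the log2 change of 2.16 (SE 0.96, adjusted p = 0.103) passed only without tissue library 3 among the libraries left out (adjusted p = 0.0368, spanning 0.00188 to 0.25 across alternatives). Reads may have been split between bmp2a and bmp4, whose tested transcripts come from 1 assembled gene.

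Calls for other BMP-type ligands changed when 1 library was left out. A fit with 1 library fewer passes the test less easily, so a call can end while its log2 change hardly moves. Without any 1 of the cell libraries the log2 change was 3.12 to 3.40 for bmp6 and 2.95 to 3.23 for gdf7, against 3.31 and 3.11 with all libraries. bmp6, known for its part in iron control through hepcidin, stood at 91.1, 135 and 91.1 in cells, against 56.2, 1.98 and 5.97 in tissue. It rose by 3.31 (SE 1.11, adjusted p = 0.0457), and the call ended without any 1 of the cell libraries, tissue library 2 or tissue library 3 (adjusted p = 0.0945 to 0.147, spanning 0.00102 to 0.147 across alternatives). The tendon- and neural tube-associated ligand gdf7 was low, at 22.3, 33.4 and 25.3 in cells, against 2.67, 0 and 7.96 in tissue. It rose by 3.11 (SE 0.89, adjusted p = 0.0253), and its call ended without any 1 of the cell libraries (adjusted p = 0.0642 to 0.0852, spanning 0.000428 to 0.0852 across alternatives). The groups of gdf7 values were apart, but it passed the filter through cells only. Without tissue library 3, bmp5 (log2 change 3.15, adjusted p = 0.0911) and bmp16, a fish relative of bmp2 and bmp4 (1.25, adjusted p = 0.16), passed at adjusted p = 0.0443 and 0.0422 (spanning 0.00295 to 0.226 for bmp5 and 0.00197 to 0.339 for bmp16 across alternatives). Without tissue library 2, bmp10l (-1.41, adjusted p = 0.241) passed as lower at adjusted p = 0.041 (spanning 0.041 to 0.503 across alternatives), and under equal totals its change turned to 1.01.

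Of the 3 activin subunit genes only INHBB passed. This gene of the activin beta B subunit stood at 142, 298 and 247 normalised counts in cell libraries 1, 2 and 3 and at 0 in every tissue library, at least 34.5-fold higher (limma adjusted p = 0.000108). INHBB passed the filter through cells only, so it had to be higher. Both tested transcripts of a further assembled gene of that name had 11.9 in tissue library 3 and 0 in the other tissue libraries, and they too were higher in cells. The activin beta A gene inhbaa stood at 1061, 75.1 and 83.7 in cells, against 102, 47.6 and 93.5 in tissue. Cell library 1 was far above every other library, cell libraries 2 and 3 lay within the tissue range, and inhbaa did not pass (log2 change 1.29, SE 1.02, adjusted p = 0.326). Its paralogue inhbab stood at 31.7, 43.9 and 18.3 in cells, against 24.1, 0 and 0 in tissue, and passed only without tissue library 1 among the libraries left out (adjusted p = 0.00111, spanning 0.00111 to 0.189 across alternatives, against 0.0725 with all libraries).

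**Figure D2:**
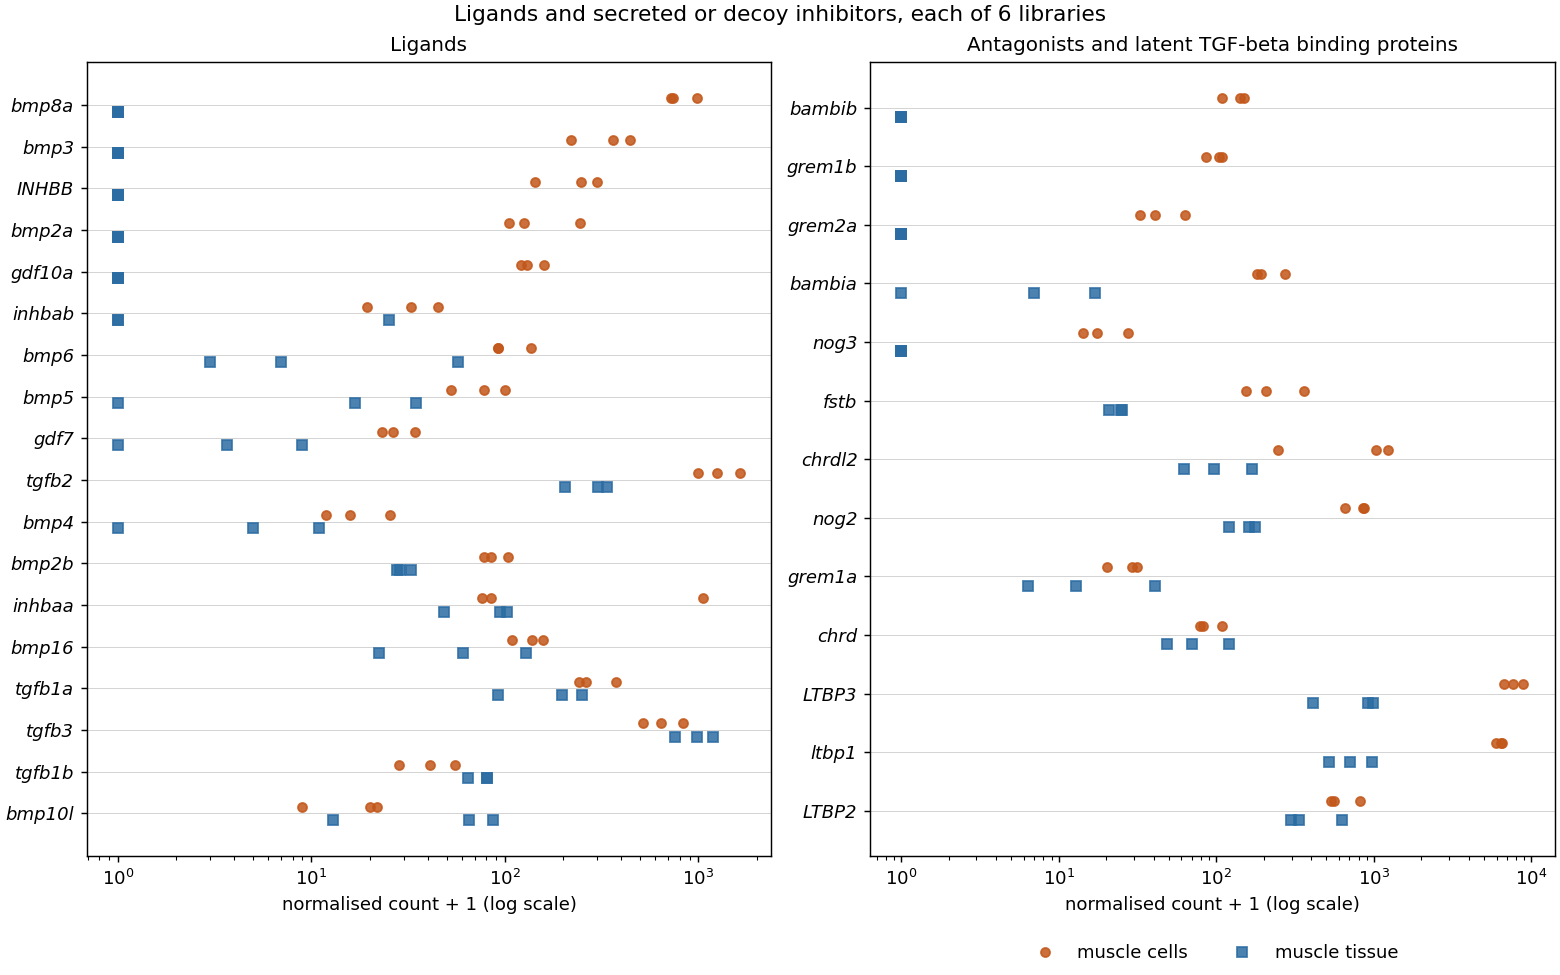
Normalised count + 1 (log axis) of the 18 ligands (left) and of the 13 antagonists and latent TGF-beta binding proteins (right) in each of 3 cell libraries (orange circles) and 3 tissue libraries (blue squares). Squares at 1 are values of 0: bmp8a, bmp3, INHBB, bmp2a, gdf10a, bambib, grem1b, grem2a and nog3 were at 0 in every tissue library, and inhbaa has 1 cell library at 1061 far from the others.

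Among receptors the lowest adjusted p was that of a type II TGF-beta receptor gene, which the table holds as the paralogues tgfbr2a and tgfbr2b. tgfbr2a stood at 1393, 1576 and 1177 normalised counts in cell libraries 1, 2 and 3, against 90.9, 143 and 95.5 in tissue libraries 1, 2 and 3. The groups were far apart, tgfbr2a rose by 3.66 (SE 0.25, limma adjusted p = 5.9e-05), and all 5 of its assembled transcripts rose. The highest transcript of tgfbr2b stood at 743, 920.0 and 982 in cells, against 1423, 1331 and 1207 in tissue. It fell by 0.59 on the log2 scale (SE 0.17, adjusted p = 0.0269) with no overlap of the groups, turned to 1.95 under equal totals, and did not pass without cell library 1, cell library 2 or tissue library 2 (adjusted p = 0.0558 to 0.0695, spanning 5.74e-05 to 0.0695 across alternatives). The other 3 tgfbr2b transcripts went the opposite way, with log2 changes of 0.99, 0.99 and 0.92, and 2 of them carried nearly the same values in every library. Summed over its transcripts, tgfbr2b rose by 0.44 (adjusted p = 0.047). The highest transcript carried 22.7% of the tgfbr2b signal in cells and 46.4% in tissue. Of the 68 members, tgfbr2b alone had transcripts called in both directions.

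**Figure D3:**
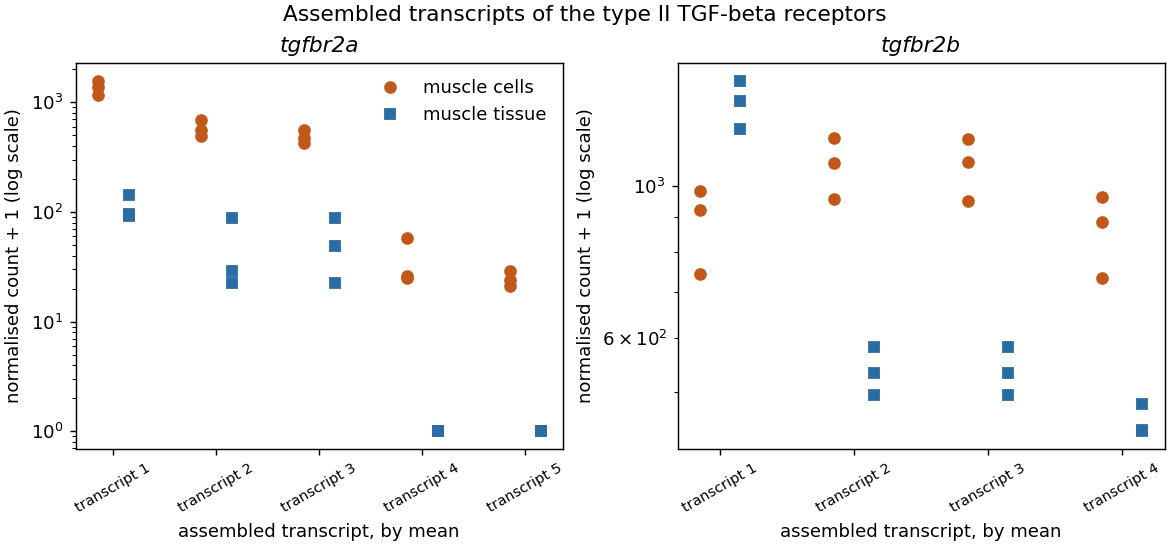
Normalised count + 1 (log axes, which differ between panels) of each assembled transcript of tgfbr2a (left) and tgfbr2b (right), ordered by mean, in 3 cell libraries (orange circles) and 3 tissue libraries (blue squares). All tgfbr2a transcripts are higher in cells, whereas the highest tgfbr2b transcript is lower in cells on this scale, though not under equal totals (1.95), and its other 3 transcripts are higher.

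Calls for the type I TGF-beta receptor and the coreceptor changed when 1 library was left out. The type I receptor tgfbr1b (ALK5) stood at 139, 109 and 125 in cells, against 0, 23.8 and 31.8 in tissue. The groups did not overlap, but with tissue library 1 at 0 the log2 change of 3.74 (SE 1.34, limma adjusted p = 0.0563) narrowly failed. Without tissue library 1 it was 2.13 and passed (adjusted p = 0.00453), as it did without tissue library 3 (adjusted p = 0.0408, spanning 0.00171 to 0.15 across alternatives). The coreceptor betaglycan, tgfbr3, which presents TGF-beta 2 to the type II receptor, stood at 431, 218 and 201 in cells, against 58.8, 129 and 43.8 in tissue. It rose by 1.93 (SE 0.51, adjusted p = 0.0192) with no overlap, a call that ended without cell library 1, cell library 2 or tissue library 3 (adjusted p = 0.0507 to 0.082, spanning 0.00022 to 0.082 across alternatives). The names tgfbr1a, acvr2ba and fsta were not analysed here.

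Among the activin receptors 1 type I receptor fell and another rose. ACVR1C (ALK7), the type I receptor for activin B, nodal and related ligands, was at 0 in all cell libraries, against 251, 254 and 217 normalised counts in tissue libraries 1, 2 and 3. It was at least 190.2-fold lower in cells (limma adjusted p = 7.92e-05), but it passed the filter through tissue only, so it had to be lower. All 4 of its transcripts fell, and only 1.76 normalised counts of 1 transcript were found in cell library 2. Of the ALK4 copies, the other type I receptors of activin, acvr1ba stood at 1240.0, 1537 and 1641 in cells, against 695, 299.5 and 360.1 in tissue. Its groups were apart, and it rose by 1.79 (SE 0.33, adjusted p = 0.00381). The type II activin receptor acvr2aa stood at 46.5, 44.8 and 56.7 in cells, against 10.7, 91.2 and 71.6 in tissue. Tissue libraries lay on both sides of the cells, and the log2 change of 0.23 (SE 0.87, adjusted p = 0.842) was -0.71 without tissue library 1 (adjusted p = 0.165, spanning 0.0233 to 0.938 across alternatives). Of its relatives, acvr2bb was too low to be tested, at 3.52, 22.8 and 5.23 in cells, against 0, 0 and 3.98 in tissue.

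Of the BMP receptors only bmpr2b and ACVR1 passed. The type II receptor bmpr2b stood at 373, 401 and 426 in cells, against 104, 284 and 105 in tissue. It rose by 1.44 (SE 0.41, limma adjusted p = 0.026), and the call ended without any 1 of the cell libraries, tissue library 1 or tissue library 3 (adjusted p = 0.0584 to 0.0882, spanning 0.000176 to 0.0882 across alternatives). Its paralogue bmpr2a stood at 339, 352 and 363 in cells, against 310.3, 113 and 223 in tissue. The groups were apart, but the log2 change of 0.82 (SE 0.38, adjusted p = 0.113) passed only without tissue library 1 among the libraries left out (adjusted p = 0.0281, spanning 8.47e-05 to 0.344 across alternatives). The type I receptor bmpr1aa (ALK3) stood at 201, 183 and 148 in cells, against 270.2, 226 and 141 in tissue. It overlapped widely and did not pass (log2 change -0.22, SE 0.32, adjusted p = 0.586), and the change was 2.30 with equal totals. ACVR1 (ALK2) averaged 543 ± 55.7 in cells, against 355 ± 50.4 in tissue (SD, n = 3). It rose by 0.62 (SE 0.20, limma adjusted p = 0.0373), close to the median of all names, and remained called only without tissue library 3 among the libraries left out (adjusted p = 0.0563 to 0.119 without each of the others, spanning 3.72e-05 to 0.237 across alternatives). acvrl1 (ALK1), an endothelial receptor in mammals, averaged 925 ± 121 in cells, against 633 ± 199 in tissue (SD, n = 3). Its log2 change of 0.58 (limma adjusted p = 0.0994) passed without tissue library 3 (adjusted p = 0.0233, spanning 5.26e-05 to 0.433 across alternatives), while the endothelial markers stood as given above. Without tissue library 1, bmpr1ab was lower by a log2 change of -1.24 (adjusted p = 0.00527, spanning 0.00527 to 0.333 across alternatives), against -0.80 with all libraries (adjusted p = 0.149), but under equal totals it was higher, at 1.72 (adjusted p = 0.0126). Without tissue library 2, bmpr1ba was higher by 4.53 (adjusted p = 0.00222, spanning 0.00222 to 0.25 across alternatives), against 2.98 with all libraries (adjusted p = 0.103), and its tested transcript shares an assembled gene with bmpr1bb (ALK6 copies).

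**Figure D4:**
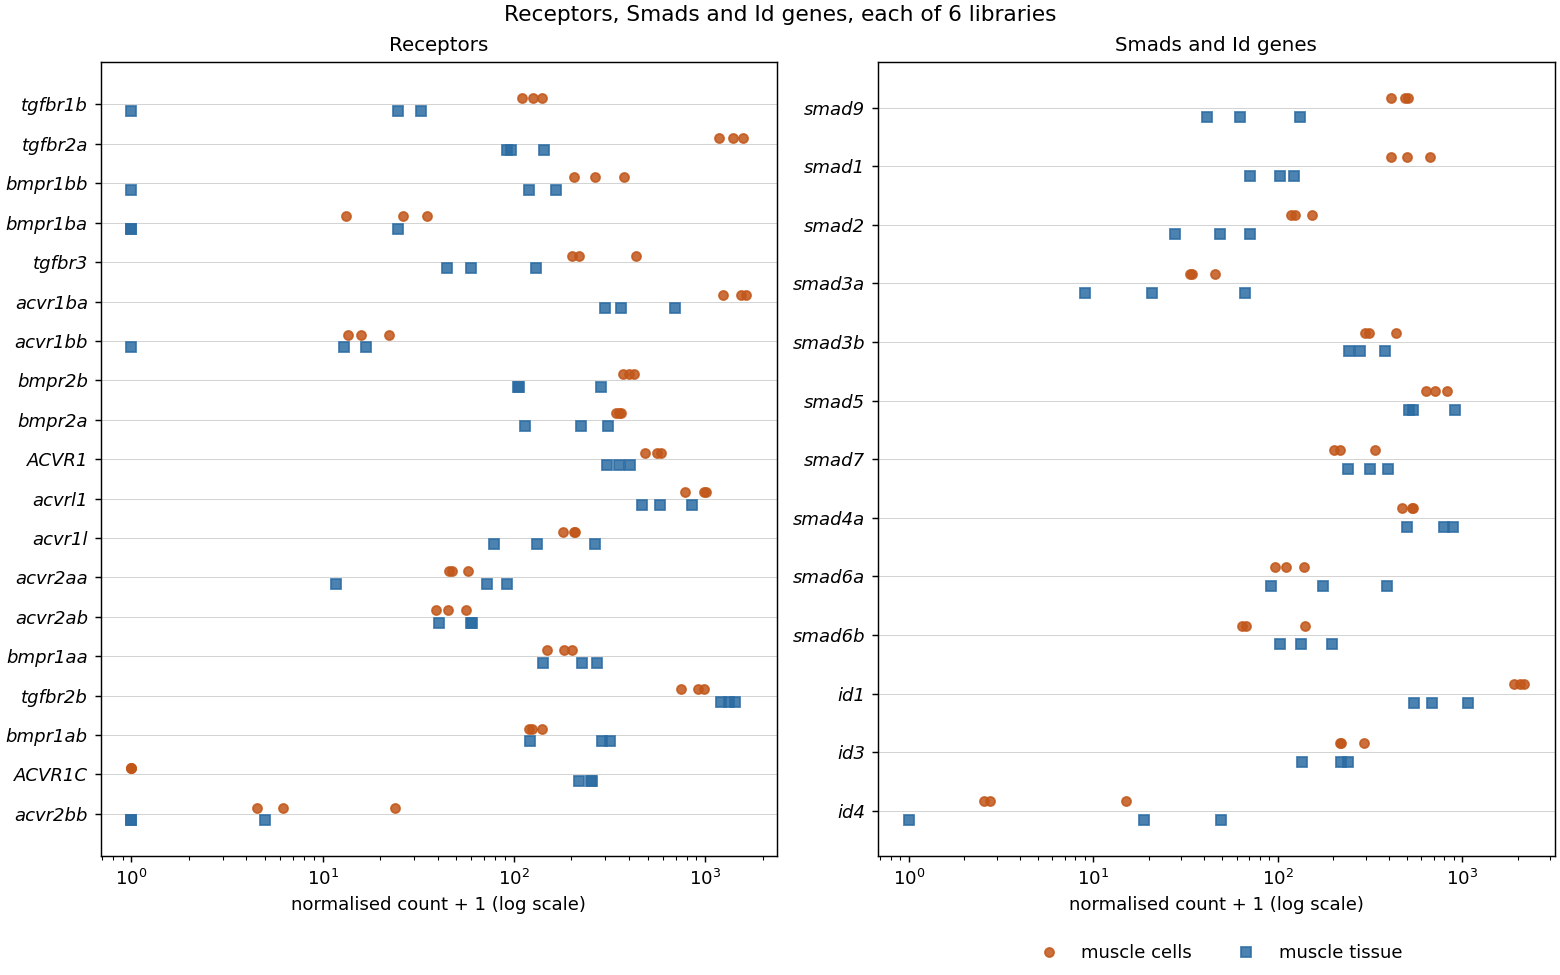
Normalised count + 1 (log axis) of the 19 receptors (left) and of the 10 Smads and 3 Id genes (right) in each of 3 cell libraries (orange circles) and 3 tissue libraries (blue squares). The groups are far apart for tgfbr2a, smad9, smad1 and, in the other direction, ACVR1C, whereas smad3b, smad5, smad7 and id3 overlap.

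Of 10 antagonists and decoys, 8 were higher in cells and none was lower, where 30.5% of all names were higher and 21.7% lower. The same counts were found when centred on the median of all names, where 25.5% of all names were higher and 25.3% lower. Under equal totals all 10 were higher, where 79.3% of all names were. In all 4 passed the filter through cells only, and 4 of the 6 that reached 10 in both groups were higher, where 28.6% of all names of that kind were. The pseudoreceptor bambib, which lacks a kinase and blunts BMP and TGF-beta signals, stood at 148, 140.5 and 108 normalised counts in cell libraries 1, 2 and 3 and at 0 in every tissue library, at least 19.9-fold higher (limma adjusted p = 0.000108). The gremlins grem1b and grem2a, secreted binders of BMP2 and BMP4, were likewise at 0 in tissue. With 84.9, 103 and 108 in cells grem1b was at least 14.8-fold higher (adjusted p = 0.000117), and with 31.7, 62.3 and 40.1 grem2a was at least 6.72-fold higher (adjusted p = 0.000208). The noggin gene nog3 was low in cells and at 0 in tissue, which allows only a bound of 2.82-fold, whereas nog2 stood at 659, 862 and 852 in cells, against 160.5, 175 and 119 in tissue. The groups of nog2 were far apart, and it rose by 2.39 (SE 0.23, adjusted p = 0.000223). The chordin-like BMP binder chrdl2 stood at 247, 1029 and 1236 in cells, against 169, 61.5 and 95.5 in tissue. Cell library 1 lay near the tissue and well below cell libraries 2 and 3, and the rise of 2.76 (SE 0.67, adjusted p = 0.0134) did not pass without cell library 2 or 3 (adjusted p = 0.0577 to 0.0638, spanning 0.000188 to 0.107 across alternatives).

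Of the other 4 antagonists, fstb and bambia passed and grem1a and chrd did not. Follistatin, fstb, which binds activin and myostatin, averaged 239 ± 107 normalised counts in cells, against 22.6 ± 2.34 in tissue (SD, n = 3). It rose by 3.26 (SE 0.48, limma adjusted p = 0.00133), as did the second pseudoreceptor copy bambia by 5.43 (SE 1.08, adjusted p = 0.00558). bambia averaged 214 ± 50.7 in cells (SD, n = 3), against 0, 5.95 and 15.9 in tissue libraries 1, 2 and 3. With tissue library 1 at 0 and tissue library 2 at its floor, the size of that rise is uncertain. In contrast grem1a averaged 25.9 ± 5.94 in cells, against 19.0 ± 18.2 in tissue (SD, n = 3) and did not pass (log2 change 0.82, limma adjusted p = 0.444). Chordin itself, chrd, averaged 88.9 ± 16.7 in cells, against 78.8 ± 36.5 in tissue (SD, n = 3). It did not pass (log2 change 0.26, limma adjusted p = 0.673), and without tissue library 3 its change was -0.050 (adjusted p = 0.93, spanning 0.00143 to 0.93 across alternatives). Of the 8 calls among antagonists, 7, all but that of chrdl2, held in every alternative that could be fitted. Among these, bambib, grem1b, grem2a and nog3 passed the filter through cells only, so they had to differ.

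Latent TGF-beta binding proteins hold the inactive ligand complex in the matrix. LTBP3 stood at 6657, 7601 and 8895 normalised counts in cell libraries 1, 2 and 3, against 412, 912 and 981 in tissue libraries 1, 2 and 3, and ltbp1 stood at 6425, 5919 and 6518 in cells, against 516, 700.2 and 967 in tissue. Both were far apart between the groups. LTBP3 rose by 3.42 (SE 0.34, limma adjusted p = 0.000241) and ltbp1 by 3.15 (SE 0.24, adjusted p = 8.96e-05). LTBP2, a fibrillin-associated matrix protein of the same family, averaged 632 ± 154 in cells, against 419 ± 179.9 in tissue (SD, n = 3). Its log2 change of 0.65 (limma adjusted p = 0.147) passed without tissue library 1 (adjusted p = 0.0174, spanning 5.2e-05 to 0.484 across alternatives). Of 11 fibroblast markers 7 were higher in cells, where 30.5% of all names were. The collagen genes col1a1a, col1a1b and col1a2 did not pass, and postnb was lower (log2 change -3.34, limma adjusted p = 0.000131). The part of fibroblasts in these values was not tested.

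Among the Smads the BMP-type smad1 and smad9 were higher in cells, and 7 of 10 did not pass; under equal totals all 10 were higher, where 79.3% of all names were. smad9 stood at 504, 412 and 487 normalised counts in cell libraries 1, 2 and 3, against 40.1, 61.5 and 131 in tissue libraries 1, 2 and 3, and smad1 stood at 498, 408 and 666 in cells, against 102, 121 and 69.6 in tissue. Neither overlapped, and smad9 rose by 2.74 (SE 0.44, limma adjusted p = 0.00223) and smad1 by 2.42 (SE 0.31, adjusted p = 0.000754). Their tested transcripts come from 1 assembled gene and may share reads, so smad1 and smad9 are not separate evidence, though 2 further smad9 transcripts in another assembled gene were higher too. The third BMP-type Smad, smad5, stood at 634, 712 and 826 in cells, against 912, 538 and 513 in tissue. Tissue library 1 lay above all cell libraries and the other tissue libraries below them (log2 change 0.19, SE 0.26, adjusted p = 0.569).

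Of the Smads of the TGF-beta and activin branch, and of the common and inhibitory Smads, only smad2 passed. smad2 stood at 152, 117 and 123 in cells, against 26.7, 47.6 and 69.6 in tissue. It rose by 1.52 (SE 0.48, limma adjusted p = 0.0377) with no overlap, and the call ended without any 1 of the cell libraries or tissue library 2 (adjusted p = 0.0571 to 0.134, spanning 0.000334 to 0.134 across alternatives). The call also ended with its transcripts summed (1.15, adjusted p = 0.064) and when centred on the median of all names (1.20, adjusted p = 0.0716). The 2 other smad2 transcripts did not pass. smad3a averaged 36.7 ± 6.82 in cells, against 31.2 ± 30.4 in tissue, and smad3b 348 ± 74.4 in cells, against 299.6 ± 70.6 in tissue (SD, n = 3). Both overlapped, with log2 changes of 0.68 (SE 0.85, limma adjusted p = 0.527) for smad3a and 0.22 (SE 0.26, adjusted p = 0.511) for smad3b. The common partner smad4a averaged 512 ± 37.7 in cells, against 728 ± 202 in tissue (SD, n = 3). Its log2 change of -0.47 (SE 0.25, limma adjusted p = 0.156) passed without tissue library 3, at -0.72 (adjusted p = 0.0199, spanning 0.000212 to 0.345 across alternatives), and turned to 2.07 under equal totals. The inhibitory smad6b averaged 89.7 ± 43.3 in cells, against 143 ± 47.1 in tissue, smad7 251 ± 73.4 in cells, against 317 ± 76.9 in tissue, and smad6a 114 ± 21.2 in cells, against 219 ± 154 in tissue (SD, n = 3). None of the 3 passed by limma, with log2 changes of -0.72, -0.34 and -0.70 (adjusted p = 0.234, 0.375 and 0.312), and under equal totals these turned to 1.80, 2.19 and 1.82.

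Of the Id genes, inhibitors of basic helix-loop-helix factors such as MyoD, id1 was higher in cells. It stood at 2044, 1898 and 2152 normalised counts in cell libraries 1, 2 and 3, against 1073, 686 and 545 in tissue libraries 1, 2 and 3. The groups did not overlap and id1 rose by 1.46 (SE 0.26, limma adjusted p = 0.00332). Another id1 transcript, with 30.1% to 36.3% of the id1 signal in tissue and 9.40% to 13.5% in cells, had a log2 change of -0.38 and did not pass (adjusted p = 0.368). Summed over its transcripts, id1 rose by 1.08 (adjusted p = 0.0111). id3 stood at 218, 216 and 292 in cells, against 219, 135 and 239 in tissue, and did not pass (log2 change 0.32, SE 0.31, adjusted p = 0.411). id4 lay at or near the floor in several libraries, and its log2 change of -1.04 (adjusted p = 0.587) became 0.12 without tissue library 1 (adjusted p = 0.95, spanning 0.0793 to 0.95 across alternatives). The tested id1 transcript shares an assembled gene with id2a, which did not pass (log2 change 2.35, adjusted p = 0.0988) except without tissue library 3 (3.16, adjusted p = 0.0476) and under equal totals (4.74, adjusted p = 0.00342).

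Ratios between members of 1 library do not depend on its scaling, and 6 such ratios were formed after their values had been seen, from the sums over all transcripts of each name. tgfbr2a over tgfbr2b was 0.729, 0.734 and 0.499 in cell libraries 1, 2 and 3, against 0.0469, 0.107 and 0.0631 in tissue libraries 1, 2 and 3, a geometric mean 9.45-fold higher in cells. tgfb2 over tgfb3 was 4.05, 6.45 and 10.5 in cells, against 0.976, 0.837 and 0.843 in tissue, 7.36-fold higher. The sum of the inhibitory smad6a, smad6b and smad7 over smad1, smad5 and smad9 was 0.661, 0.357 and 0.326 in cells, against 0.820, 1.27 and 1.30 in tissue, 0.385 times the tissue ratio. id1 over id3 was 12.7, 10.7 and 9.50 in cells, against 8.32, 8.89 and 4.59 in tissue, and smad9 over smad5 was 0.415, 0.323 and 0.317 in cells, against 0.0150, 0.0391 and 0.137 in tissue. None of these 5 ratios overlapped between the groups. For each of them the exact two-sided permutation test gave p = 0.1, the smallest that 3 against 3 libraries allow, so none can pass 0.05, and a Benjamini-Hochberg adjustment over the 6 ratios cannot lower it. BMP-type smad1, smad5 and smad9 over TGF-beta-type smad2, smad3a and smad3b was 3.17 ± 0.760 in cells, against 2.76 ± 1.67 in tissue (SD, n = 3; exact permutation p = 0.6) and overlapped. From the highest transcript of each name alone, tgfbr2a over tgfbr2b was 19.2-fold higher in cells, and no ratio changed direction. A ratio shows unequal change of its parts and not which part changed.

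**Figure D5:**
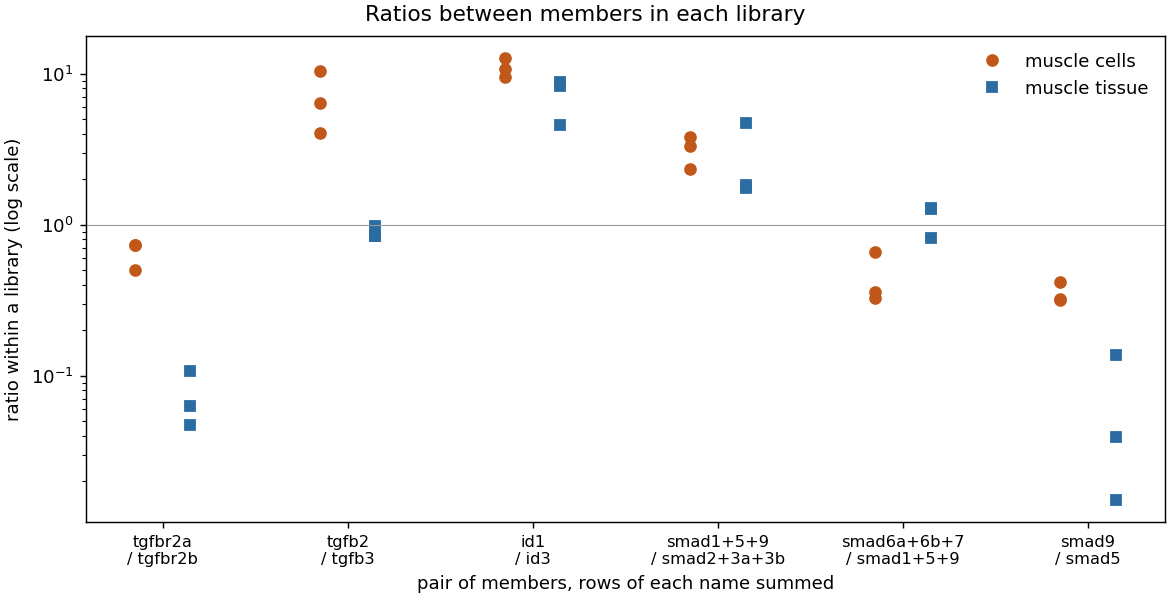
The 6 ratios between members within each library (log axis), from sums over all transcripts of each name, in 3 cell libraries (orange circles) and 3 tissue libraries (blue squares). tgfbr2a over tgfbr2b and tgfb2 over tgfb3 are higher in cells in every library, the inhibitory Smads over the BMP-type Smads are lower in cells in every library, and smad1, smad5 and smad9 over smad2, smad3a and smad3b overlap.

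Of the 5 genes matched by their letters only, 4 were higher in cells, where 30.5% of all names were. bmp1a, a procollagen C-proteinase that also cleaves chordin, stood at 2152, 2395 and 3522 normalised counts in cell libraries 1, 2 and 3, against 489.5, 496 and 350.1 in tissue libraries 1, 2 and 3. The groups were far apart and bmp1a rose by 2.58 (SE 0.25, limma adjusted p = 0.000198). Its copy bmp1b stood at 31.3, 46.1 and 56.2 in cells, against 0, 11.9 and 0 in tissue. It rose by 4.24 (adjusted p = 0.0172), a call that ended without cell library 2, cell library 3 or tissue library 3 (adjusted p = 0.0528 to 0.0624, spanning 0.000553 to 0.0624 across alternatives). The focal adhesion adaptor TGFB1I1 (Hic-5) stood at 1561, 2034 and 2099 in cells, against 69.5, 208 and 147 in tissue, and rose by 3.86 (SE 0.40, adjusted p = 0.000267). The kinase gene bmp2k rose by 0.97 (adjusted p = 0.0406), a call that of the libraries left out held only without tissue library 2 (adjusted p = 0.0838 to 0.118 without each of the others, spanning 0.000117 to 0.118 across alternatives). The trafficking gene tgfbrap1 did not pass (log2 change 1.48, adjusted p = 0.399), and without tissue library 1 its change was -0.14 (adjusted p = 0.841, spanning 0.0198 to 0.841 across alternatives).

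The rest of the pathway, from lists of genes outside the rule, was counted by role, beside 30.5% of all names higher and 21.7% lower. Of 24 secreted modulators in the table, 23 were tested, of which 18 were higher in cells and 1, NBL1, lower, though NBL1 turned to a log2 change of 1.45 under equal totals and did not pass with its transcripts summed (-0.42, adjusted p = 0.1). Among the 18, sostdc1a passed the filter through cells only, so it had to be higher. The BMP binder bmper averaged 409.5 ± 186 normalised counts in cells, against 20.5 ± 28.9 in tissue (SD, n = 3). Its rise of 5.58 (limma adjusted p = 0.0149) did not pass without cell library 2 (adjusted p = 0.0696) or cell library 3 (adjusted p = 0.0642). Thrombospondin thbs1a, an activator of latent TGF-beta, averaged 70049 ± 9794 in cells, against 1494 ± 312 in tissue (SD, n = 3; log2 change 5.56, limma adjusted p = 1.16e-05). The groups of its copy thbs1b overlapped, and thbs1b did not pass (log2 change 1.01, limma adjusted p = 0.173). Of 6 coreceptors tested, 3 were higher and 1 lower, too few to set against the shares of all names. The BMP coreceptor hjv, hemojuvelin, averaged 3.20 ± 4.80 in cells, against 137 ± 58.9 in tissue (SD, n = 3; log2 change -5.62, limma adjusted p = 0.00326) and passed the filter through tissue only. Neuropilin nrp1a averaged 1201 ± 244 in cells, against 123 ± 83.0 in tissue (SD, n = 3; log2 change 3.45, limma adjusted p = 0.000807).

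Of the ligands outside the rule, both that were tested were lower in cells. Myostatin, mstnb, the restrainer of muscle growth, averaged 51.8 ± 12.3 normalised counts in cells, against 844 ± 162 in tissue (SD, n = 3). Its log2 change of -4.01 (limma adjusted p = 8.16e-05) was -1.49 under equal totals (adjusted p = 0.00313), so that mstnb was lower on both scales. On both scales fstb was higher, as was INHBB, but INHBB passed the filter through cells only, so it had to be higher. The second, the nodal-related spaw, fell by 2.18 (adjusted p = 0.0357) on the deposited scale but stood at 0.28 under equal totals (adjusted p = 0.718), and its call also ended without cell library 2, cell library 3, tissue library 2 or tissue library 3 (adjusted p = 0.115, 0.119, 0.0742 and 0.0702). The name mstna was not analysed here. Of 22 intracellular regulators, 6 were higher and 5 lower, shares close to the 30.5% and 21.7% of all names, and 18 were higher and 1 lower under equal totals, where 79.3% and 8.27% of all names were. Among them tob1a, an antiproliferative binder of BMP-type Smads, averaged 357 ± 168 in cells, against 6334 ± 1357 in tissue (SD, n = 3; log2 change -4.22, limma adjusted p = 0.000106; -1.68 under equal totals). The Smad phosphatase gene ppm1ab rose by 3.23 (adjusted p = 0.0139), which did not pass without cell library 1, 2 or 3 (adjusted p = 0.0614, 0.0561 and 0.0635). Its copy ppm1aa went the other way, at -2.36 (adjusted p = 0.0482), a call that ended in 10 alternatives, among them equal totals, where the change was 0.039. Of 12 further target genes 8 were higher and 1, hey1, lower, beside the same shares of all names. Among the 8, dlx5a and msx1b passed the filter through cells only, so they had to be higher. The matricellular target ccn2b averaged 9727 ± 3949 in cells, against 115 ± 21.0 in tissue (SD, n = 3; log2 change 6.32, limma adjusted p = 2.1e-05), and dlx5a, a BMP-responsive homeobox gene, was at least 15.8-fold higher in cells, with no read in tissue.

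The spread between libraries was given as the coefficient of variation. Its median over the tested members was 20.0% in cells and 45.5% in tissue, beside 19.0% in cells and 40.4% in tissue over all tested names. In cells 1 tested member, ACVR1C, was at 0 in every library (1.49%), beside 3.60%, 2.86% and 2.39% of all tested names in cell libraries 1, 2 and 3. In tissue 18 members were at 0 in library 1 (26.9%) and 12 each in libraries 2 and 3 (17.9%). Of all tested names, 14.9%, 6.46% and 6.38% were at 0 in tissue libraries 1, 2 and 3. Tissue library 1 alone was at 0 for 7 members, namely bmp5, bmp4, tgfbr1b, bmpr1bb, acvr1bb, bambia and tgfbrap1, and in that library 1 read was worth 2.67 normalised counts, the highest of the 6. Of the 66 tested members above 0 in every cell library, 13 differed by more than 2-fold between cell libraries. Of the 46 above 0 in every tissue library, 23 did so between tissue libraries.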

How the data were processed

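RNA was measured in 3 libraries of cultured muscle cells and 3 of muscle tissue. The kit selected poly(A) RNA and kept strand, per the labels' protocols. The submitters' processing notes list the tools FastQC (0.11.8), DESeq2, Bowtie2 and Trimmomatic and the build GRCz11, without saying what each was used for. How reads were counted, and how those matching several transcripts were treated, is not given in the sources used here. Values in the deposited table are normalised counts of 71447 Trinity transcripts with gene symbols, each library being divided by its own size factor. Every value was a whole multiple, within 0.01, of the library's smallest value above 0 (100% of values), so whole reads could be recovered.

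Values were tested as log2(value + 1) with limma 3.58.1 (R 4.3.3, intensity trend, 4 residual and 2.93 prior degrees of freedom), cells minus tissue, for the 65662 transcripts with 10 or more in at least 3 libraries, and Benjamini-Hochberg adjusted over all of them; a call is an adjusted p under 0.05. The added 1 lowers the changes of low genes that are above 0 in every library. Changes of genes at 0 in every tissue library exceed their log2 bounds on this scale, as for nog3 (4.25 against 1.49) and grem2a (5.46 against 2.75). Bounds for genes at 0 in 1 group divide the other group's mean by the mean floor of 3 reads, 1.27 normalised counts in cells and 6.65 in tissue. Members, lists, tests and the rule for named genes were chosen with earlier results of these data known. The rule gives full values, within each role, for the 3 largest rises and 3 largest falls among calls without overlap, the 2 highest means and a fixed set of pathway genes. Other members are named for their role or for a call or direction that changed without 1 library. Count models had been planned on the recovered reads; they were left out, and voom weights in limma took their place. No replicate pair was a duplicate, as chi-square values between pairs were 52.6 to 215 per degree of freedom. Other alternatives were rescalings, pseudocounts of 0.5 and 5, no filter, a filter of 50, a robust prior, a replicate block, summed transcripts and leaving out each library, 17 in all. Tables and figures were made with matplotlib 3.10.9, scipy 1.17.1, numpy 2.4.6 and pandas 2.3.3 under Python 3.11.15.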

Additional observations from a re-analysis of the deposited data

How the results depend on the processing

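Without any 1 library, 22 to 33 members were higher and 1 to 3 lower. Equal totals gave 64 higher and 1 lower, centring on the median of all names 26 higher and 5 lower, and the sum of all transcripts of a name 31 higher and 1 lower; in the other 7 fits over all libraries 29 to 34 were higher. The labels do not say whether same-numbered cell and tissue libraries are paired. Their deviations from the group means had correlations of -0.0626, -0.0446 and -0.0173, which cannot decide it, as culture may remove a shared origin. With the replicate number as a block 28 members were higher and 1 was lower. With equal totals the log2 change turned to 1.97 for tgfb3, 1.95 for tgfbr2b, 2.07 for smad4a, 1.58 for tgfb1b, 2.30 for bmpr1aa, 1.80 for smad6b and 2.19 for smad7, since that scaling moves the median of all names to 3.06. Centring turned smad5 to -0.13, acvr2aa to -0.092 and smad3b to -0.099. Leaving out 1 library moved acvr2aa between -0.71, without tissue library 1, and 0.78, without tissue library 2, and summed transcripts gave 0.44 for tgfbr2b and 0.077 for bmpr1aa; the cause was not tested. Tissue libraries held more reads than cell libraries, but 1 read is worth more there by the size factor, so a value of 0 in tissue allows up to 5.95 to 8.02 normalised counts per library.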
